A study of Homo sapiens with 12 samples.

Results

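The 96 genes described here are the numbered zinc finger genes ZNF2 to ZNF299 that an Affymetrix human gene expression array can read by name. They were chosen by a rule on names, which was set with earlier results of these data known. The platform annotation had to give a probe set 1 gene symbol, and that symbol had to be ZNF followed by a number below 300. A probe set is a group of short probes against 1 transcript, and 125 probe sets met the rule. Where a gene had several, as 23 genes did, the probe set with the highest mean over the 12 arrays was used. The same reading gave 11963 genes in all, among them 116 genes numbered ZNF300 and above and 46 genes of the ZBTB, ZFP, ZKSCAN and ZSCAN families. RNA came from RKO cells, a human colorectal cancer line, in 4 groups of 3 arrays. Control cells are called untreated by the labels and DMSO-treated by the methods of the study. The TQ group received 20 µM thymoquinone, a quinone from black cumin seed. The 5-FU group (5FU in the labels) received 10 µg/mL of 5-fluorouracil, about 76.8 µM, a pyrimidine analogue that blocks thymidylate synthesis. The TQ+5-FU group (MIX in the labels) received both agents at these doses, and all groups were collected after 24 h. RKO is a single line, so that the groups model 1 genotype. The methods speak of independent biological replicates in general, while the labels do not tie arrays to separate cultures, so a p-value here reflects array-to-array spread, which may be technical.

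Most proteins of this group carry tandem C2H2 zinc fingers, each of which can read a few bases of DNA. Many also carry a KRAB domain, which binds the corepressor TRIM28 (KAP1) and through it the histone methyltransferase SETDB1, so that the bound DNA is packed as heterochromatin. Transposable elements are their best known targets, and the genes themselves lie in tandem clusters that arose by duplication, the largest of them on chromosome 19. The numbers of the symbols follow the order of naming, not the structure. A few members are of other kinds, such as ZNF185, which is named for a LIM domain, and ZNF207, a kinetochore protein. Messages of this family are in general short-lived.

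Signals are log2 values after RMA, and a difference of 1 is a 2-fold change relative to the other genes on the array, with the amount of RNA per cell not known. In bulk RNA, fewer cells of a kind and less RNA per cell cannot be told apart. Genes were called changed where limma gave an adjusted p under 0.05 over 22215 probe sets. Median signals of the arrays lay between 6.33 and 6.55. 5-FU replicate 3 stood apart from its group: its mean correlation with the other 2 5-FU arrays was 0.911 over all probe sets and 0.807 over the members, against 0.997 to 0.998 over all probe sets within control and within TQ. TQ+5-FU replicate 2 was lowest in its group, at 0.978 beside 0.984 and 0.990. 5-FU replicates 1 and 2, which were kept, stood at 0.952 and 0.957, means that include their correlation with replicate 3. 5-FU replicate 3 and TQ+5-FU replicate 2 are called displaced, and results are given with and without them. On the displaced 5-FU array the 24 probe sets for poly-A spike-ins, which report on labelling, averaged 9.47, the highest of the series. The other arrays lay between 8.22 and 8.97. The mean of 3 leukocyte markers there was 5.26 against 4.56 to 4.99 elsewhere, that of 4 fibroblast markers 5.61 against 4.95 to 5.34, and that of 3 endothelial markers 5.21 against 4.37 to 4.95. All 3 were highest on this array, and their part in the results below was not tested. The median difference of all genes from the control mean was also positive on it, at 0.37. Of 7 epithelial and colon markers, EPCAM (control mean 9.04), KRT18 (12.09), KRT8 (6.74) and CDX2 (6.88) exceeded the median signal of the control arrays. The epithelial cadherin CDH1, KRT19 and VIL1 lay far below it. With TQ the mean of CDX2 was 6.45, below the median signal of each TQ array (6.53 to 6.55).

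The promoters of the genes that carry the findings are shown first. RefSeq windows from 250 bases before to 50 bases after the start site were found for 83 of the 96 members, on GRCh38.p14. The first 4 belong to the members called with 5-FU in all 12 arrays, ZNF267 and ZNF10 were among the 5 largest TQ differences, and ZNF222 and ZNF230 are neighbours on chromosome 19 that were higher with every treatment once the displaced arrays were set aside. All are written 5′ to 3′ along the gene. Capitals mark motifs searched on both strands. They are the CCAAT box, written ATTGG where it lies on the other strand, and the 8 letters TTCCCAGA, written TCTGGGAA on the other strand. The cAMP response element TGACGTCA, the core of the antioxidant response element TGACNNNGC and the AP-1 site TGANTCA are marked as well. The windows are those of ZNF79 (chr9:127424132-127424431, plus strand), ZNF219 (chr14:21104673-21104972, minus strand), ZNF202 (chr11:123741611-123741910, minus strand), ZNF8 (chr19:58278705-58279004, plus strand), ZNF267 (chr16:31873557-31873856, plus strand), ZNF10 (chr12:133130377-133130676, plus strand), ZNF222 (chr19:44025129-44025428, plus strand) and ZNF230 (chr19:44002707-44003006, plus strand).
ZNF79: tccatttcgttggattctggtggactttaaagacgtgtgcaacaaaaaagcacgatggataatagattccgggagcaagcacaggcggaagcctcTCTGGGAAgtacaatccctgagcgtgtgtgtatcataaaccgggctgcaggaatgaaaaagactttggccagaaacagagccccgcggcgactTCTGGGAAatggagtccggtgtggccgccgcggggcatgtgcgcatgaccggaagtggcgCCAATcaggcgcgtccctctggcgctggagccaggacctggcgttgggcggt
ZNF219: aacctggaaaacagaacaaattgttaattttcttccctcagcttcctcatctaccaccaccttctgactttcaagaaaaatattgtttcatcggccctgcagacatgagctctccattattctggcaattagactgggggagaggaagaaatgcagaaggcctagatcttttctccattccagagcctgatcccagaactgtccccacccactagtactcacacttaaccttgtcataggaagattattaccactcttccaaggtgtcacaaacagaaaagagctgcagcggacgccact
ZNF202: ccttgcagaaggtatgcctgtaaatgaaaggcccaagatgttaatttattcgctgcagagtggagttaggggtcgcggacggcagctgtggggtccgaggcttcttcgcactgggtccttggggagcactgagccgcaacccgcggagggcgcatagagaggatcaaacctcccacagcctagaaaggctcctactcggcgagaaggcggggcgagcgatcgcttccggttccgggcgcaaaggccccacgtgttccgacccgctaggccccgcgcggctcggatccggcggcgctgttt
ZNF8: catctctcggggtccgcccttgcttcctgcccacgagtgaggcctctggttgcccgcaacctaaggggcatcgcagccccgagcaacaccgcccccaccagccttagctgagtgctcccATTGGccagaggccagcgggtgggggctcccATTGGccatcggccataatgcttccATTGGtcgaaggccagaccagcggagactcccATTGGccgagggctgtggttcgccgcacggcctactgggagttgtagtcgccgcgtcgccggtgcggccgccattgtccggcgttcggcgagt
ZNF267: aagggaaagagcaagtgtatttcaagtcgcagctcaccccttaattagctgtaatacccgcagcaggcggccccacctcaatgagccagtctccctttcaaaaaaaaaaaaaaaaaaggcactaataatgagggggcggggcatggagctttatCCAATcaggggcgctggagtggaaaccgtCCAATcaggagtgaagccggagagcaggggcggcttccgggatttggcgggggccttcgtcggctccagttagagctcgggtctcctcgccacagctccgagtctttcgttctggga
ZNF10: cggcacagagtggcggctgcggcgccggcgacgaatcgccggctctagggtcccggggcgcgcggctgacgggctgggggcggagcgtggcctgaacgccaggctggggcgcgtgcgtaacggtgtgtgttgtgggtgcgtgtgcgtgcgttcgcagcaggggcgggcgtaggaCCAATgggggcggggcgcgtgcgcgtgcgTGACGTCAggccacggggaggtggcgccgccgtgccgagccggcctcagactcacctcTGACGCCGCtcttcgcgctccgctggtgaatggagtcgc
ZNF222: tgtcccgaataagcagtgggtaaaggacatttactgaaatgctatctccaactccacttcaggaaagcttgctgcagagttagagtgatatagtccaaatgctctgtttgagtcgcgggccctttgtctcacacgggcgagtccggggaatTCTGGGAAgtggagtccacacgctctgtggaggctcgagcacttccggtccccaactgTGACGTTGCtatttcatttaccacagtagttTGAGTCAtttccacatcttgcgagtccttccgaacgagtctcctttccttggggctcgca
ZNF230: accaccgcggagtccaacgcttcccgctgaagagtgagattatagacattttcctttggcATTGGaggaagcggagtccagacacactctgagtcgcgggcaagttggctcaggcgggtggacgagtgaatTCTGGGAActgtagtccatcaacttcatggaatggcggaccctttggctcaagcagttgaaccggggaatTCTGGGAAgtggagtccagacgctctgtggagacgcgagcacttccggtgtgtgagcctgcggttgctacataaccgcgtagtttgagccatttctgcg
The window of ZNF79 held 1 CCAAT box and 2 copies of TTCCCAGA, and that of ZNF230 the same numbers of each. ZNF8 held 4 CCAAT boxes, all on the reverse strand, and ZNF267 held 2. In ZNF10 a CCAAT box lay upstream of a cAMP response element and an antioxidant response element core, and ZNF222 held 1 copy of TTCCCAGA, 1 antioxidant response element core and 1 AP-1 site. None of the searched motifs was found in the windows of ZNF219 and ZNF202.

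Across the 83 windows the CCAAT box was found in 41 (49.4%), against 35.7% of all 27305 promoters of the same length and 42% of the 100 windows found for genes numbered ZNF300 and above. TTCCCAGA was found in 17 (20.5%), against 2.86% of all promoters and 8% of those of ZNF300 and above. This motif was added after the windows had been read, so its share is a description of the windows that gave rise to it. The cAMP response element stood in 4 windows (4.82% against 1.98%), those of ZNF10, ZNF143, ZNF200 and ZNF266. Its share was alike among ZNF300 and above (5%). The TATA box (TATAAA) stood in 1 window (1.2% against 12%), and was also infrequent among ZNF300 and above (4%). Shares of the antioxidant response element core (13.3% against 13.6%) and the AP-1 site (8.43% against 7.76%) were close to those of all promoters. The heat shock element core GAANNTTC was less frequent (3.61% against 6.87%). GC content had a median of 60.3% against 58.3%, and a window held a median of 21 CpG against 14. A match is a run of letters in this window and not a bound site.

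TQ against control asked what the quinone alone did. The members lay higher as a group while most genes lay slightly lower. Their median difference was 0.38, against -0.09 over all genes, -0.03 over ZNF300 and above and 0.10 over the ZBTB, ZFP, ZKSCAN and ZSCAN genes. Of the 96 members, 71 had a positive difference, 13 were over 2-fold higher and 0 over 2-fold lower, with a range from -0.49 to 1.62. All 3 TQ arrays lay above all 3 control arrays in 56 members (58.3%), where 17.5% of all genes did so, and below them in 8 (8.33%), where 28.9% of all genes did so. Among ZNF300 and above these were 26 (22.4%) above and 28 (24.1%) below. The ZBTB, ZFP, ZKSCAN and ZSCAN genes also exceeded all genes, with 19 of 46 above (41.3%) and 9 below (19.6%). In the limma fit of all 12 arrays, however, 0 members passed the adjusted threshold in either direction, where 0.15% of all genes were called higher and 0.117% lower. Without adjustment 19 members were higher and 2 lower at p under 0.05, where 3.37% of all genes were higher and 6.3% lower. The t-test named in the methods called 37 after adjustment (38.5%), where it called 17.5% of all genes. The same TQ and control values gave, once the 2 displaced arrays were left out, 50 members higher and 4 lower, against 15.1% and 17.3% of all genes and 34.8% and 17.4% of the ZBTB, ZFP, ZKSCAN and ZSCAN genes. A fit of the TQ and control arrays only gave the same counts, 50 and 4, against 15% and 16% of all genes. None of the displaced arrays belongs to this comparison: in the fit of 12 arrays they enter through the spread that all groups share.

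**Figure D1:**
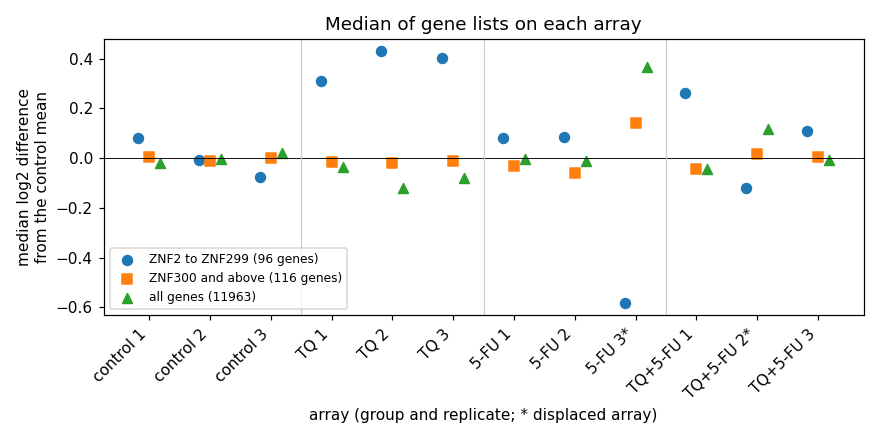
Median log2 difference from the control mean (vertical axis) on each of the 12 arrays (horizontal axis), for the 96 members, the 116 genes numbered ZNF300 and above and all 11963 genes. The members lie at 0.31, 0.43 and 0.40 on the TQ arrays and at -0.58 on the displaced 5-FU array (marked with a star), where all genes lie at 0.37.

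Per array the members' median stood at 0.08, -0.01 and -0.07 from the control mean on the control arrays themselves. On the TQ arrays it was 0.31, 0.43 and 0.40, with no overlap with the controls. Over all genes the TQ arrays had medians of -0.04, -0.12 and -0.08, so the members' difference ran against that of the whole array.

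ZNF267, a KRAB zinc finger gene on chromosome 16, had the largest TQ difference. Its signals were 5.98, 6.06 and 5.56 on the control arrays and 7.25, 7.62 and 7.57 on the TQ arrays. No TQ array came within the control range, and the difference was 1.62 ± 0.41 (SE), with an adjusted p of 0.17 in the fit of all arrays and 0.000606 without the displaced arrays (limma). ZNF10 (KOX1) is the gene whose KRAB domain is used as the repressor in CRISPR interference. It read 5.53, 5.22 and 4.89 in control and 6.26, 6.59 and 6.62 with TQ. Its groups were separate as well, by 1.28 ± 0.31 (SE), with adjusted p of 0.156 and 0.000795. ZNF91, a restrainer of SVA retrotransposons, read 5.59, 5.11 and 5.12 in control and 6.51, 6.77 and 6.91 with TQ, a difference of 1.46 ± 0.52 (SE; adjusted p 0.361 and 0.000799). ZNF184 and ZNF165, both on chromosome 6, completed the 5 largest.

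ZNF184 read 6.84, 6.54 and 6.26 in control and 7.69, 8.07 and 8.14 with TQ. ZNF165, a SCAN-domain gene known as a testis antigen, read 5.31, 4.86 and 4.75 and 6.18, 6.43 and 6.33. Again no array of TQ fell among the controls. The differences were 1.42 and 1.34, and both rose in the fit without the displaced arrays, with adjusted p of 0.000589 and 0.000542. ZNF165 and ZNF222 stand on the study's own list of genes shared by its treatments, which was chosen on these samples, so their direction there is not independent of these values.

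The smallest p-values without the displaced arrays belonged to ZNF230, ZNF23, ZNF112, ZNF148 and ZNF189. ZNF230 read 5.69, 5.53 and 5.62 in control and 6.67, 6.86 and 6.77 with TQ, a difference of 1.15 ± 0.10 (SE; adjusted p 9.71e-05). ZNF148 (ZBP-89), a factor of GC-rich promoters, read 6.96, 6.93 and 6.77 and 7.74, 7.72 and 7.88, a difference of 0.90 ± 0.10 (adjusted p 0.000425). Each of the 5 was higher on every TQ array than on any control array. ZNF23, ZNF112 and ZNF189 rose by 1.22, 1.05 and 1.02. Among members with roles outside repression, ZNF143, an activator of small nuclear RNA genes, rose by 0.68 (adjusted p 0.00136) and ZNF207 (BuGZ), which loads a checkpoint protein on kinetochores, by 0.36 (adjusted p 0.0123). ZNF217, an oncogene amplified in several carcinomas, did not pass at 0.35 ± 0.19 (SE; adjusted p 0.204), and ZNF281 did not at 0.31 ± 0.14 (adjusted p 0.108). ZNF93, which restrains L1 elements, differed by 0.17 ± 0.08 (adjusted p 0.123). ZNF143, ZNF207, ZNF217 and ZNF93 were named for their known roles after the values had been seen.

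The 4 members that fell without the displaced arrays were ZNF212, ZNF8, ZNF142 and ZNF282. ZNF212 read 9.42, 9.45 and 9.47 in control and 8.97, 9.09 and 8.99 with TQ, a difference of -0.43 ± 0.07 (SE; adjusted p 0.00196). ZNF8 read 7.82, 7.76 and 7.81 and 7.40, 7.49 and 7.40, a difference of -0.36 ± 0.08 (adjusted p 0.00745). In each of the 4 all TQ arrays lay below all controls, and their differences ran from -0.49 to -0.36, smaller in size than those of the members that rose most. ZNF282 and ZNF142 differed by -0.49 and -0.40, while ZNF205 and ZNF76, next in order, did not pass at -0.35 and -0.27.

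**Figure D2:**
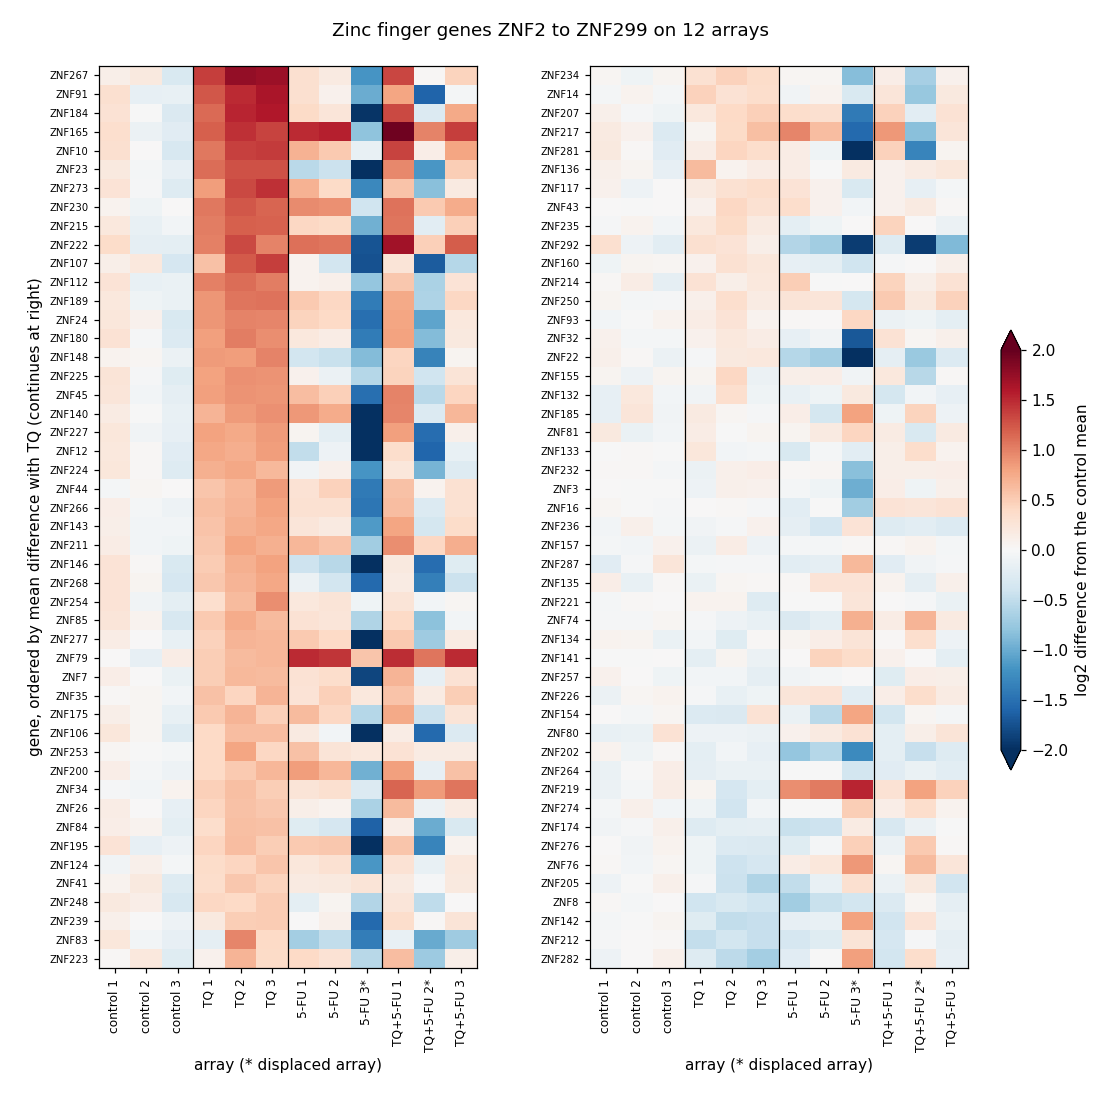
Log2 difference of each of the 96 members (rows, ordered by their mean difference with TQ, upper rows at left) from its control mean on the 12 arrays (columns), with the colour scale ending at -2 and 2. The TQ columns are red in the left panel, and many of the same rows are blue on the displaced 5-FU array (star).

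The rise with TQ was spread over the genome and over signal levels. The 37 members on chromosome 19 had a median of 0.38 and the 59 on other chromosomes 0.36. Without the displaced arrays 19 and 31 of them rose, where 15.1% of all genes did. In contrast, the 706 chromosome 19 genes of no zinc finger name had a median of -0.19, with 9 higher and 181 lower in the same fit. The brighter and the dimmer 48 members both had a median of 0.38, with 25 of each higher in that fit. Of all genes, 1448 of the 6860 brighter than the members' median signal were higher, and 358 of the 5103 at or below it. Probe sets ending in x_at can share probes with other genes, which matters in a family of duplicates. Of the 15 members read from such probe sets 9 rose, with a median difference of 0.53. Of the 24 read from probe sets ending in s_at 13 rose (median 0.45), and of the 57 read from plain _at probe sets 28 (median 0.35).

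In the RefSeq order of protein-coding genes (GRCh38.p14), members no more than 5 genes apart were joined into runs. The longest was a run of 14 on chromosome 19, from ZNF45 through ZNF221, ZNF155, ZNF230, ZNF222, ZNF223, ZNF224, ZNF225, ZNF234, ZNF226, ZNF227, ZNF235 and ZNF112 to ZNF180. Its median TQ difference was 0.76, with a range from -0.09 to 1.15. In 10 of the 14 all TQ arrays lay above all controls, where they did so in 58.3% of all 96 members and 17.5% of all genes. Neighbours did not move as a block. ZNF230 (1.15) and ZNF222 (1.11) stood beside ZNF155, whose TQ difference was 0.11 ± 0.12 (SE; adjusted p 0.518, limma without the displaced arrays). In the same fit ZNF226 at -0.09 ± 0.08 (adjusted p 0.385) lay between ZNF234 (0.38) and ZNF227 (0.81). ZNF222 read 6.51, 5.95 and 5.95 in control and 7.14, 7.46 and 7.13 with TQ, and every TQ array was above every control. ZNF224, a KRAB repressor, read 4.95, 4.75 and 4.46 and 5.42, 5.48 and 5.36, and rose by 0.71 (adjusted p 0.00429), though its 2 other probe sets differed by -0.23 and -0.18 and did not pass.

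**Figure D3:**
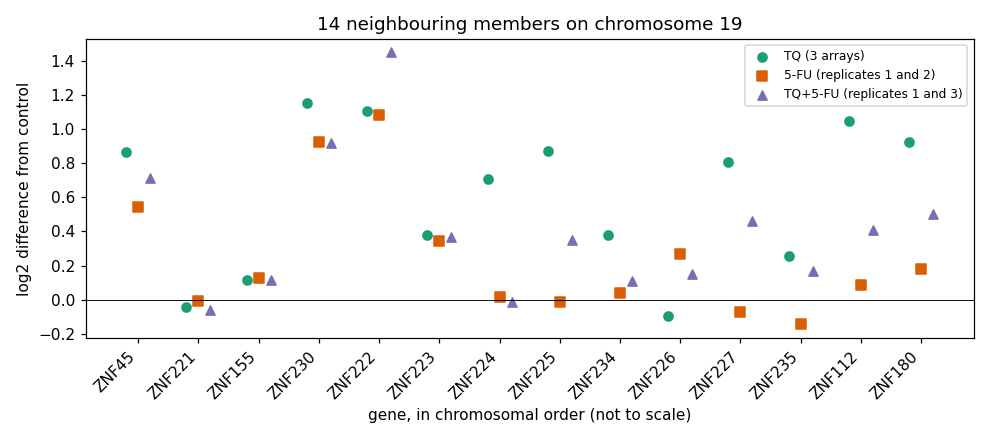
Log2 difference from control (vertical axis) of the 14 neighbouring members on chromosome 19, in gene order and not to scale, for TQ (3 arrays, circles), 5-FU (replicates 1 and 2, squares) and TQ+5-FU (replicates 1 and 3, triangles). With TQ ZNF230 (1.15), ZNF222 (1.11) and ZNF112 (1.05) lead, while with 5-FU ZNF230 (0.92), ZNF222 (1.08) and ZNF45 (0.54) do so and ZNF227 lies at -0.07.

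RefSeq windows were found for 11 of the 14 genes of this run, and TTCCCAGA stood in all 11 of these windows. Of the 11, 9 rose with TQ without the displaced arrays, where 52.1% of all 96 members and 15.1% of all genes did. Outside the run it stood in 6 of 72 windows, and 5 of these 6 genes rose, as did 31 of the 66 without it. Genes of the run are duplicates of each other, so that shared letters in their promoters are not separate events. TTCCCAGA was added after windows of genes picked for their differences had been read. These counts therefore describe the windows and do not test a link between the motif and the rise.

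A run of 5 on chromosome 12, ZNF26, ZNF84, ZNF140, ZNF10 and ZNF268, had a median TQ difference of 0.66. All 5 had TQ arrays above all controls, as had 58.3% of all 96 members and 17.5% of all genes. A run of 3 on chromosome 7, ZNF107, ZNF273 and ZNF117, had a median of 1.06, also with all 3 separate. At the end of chromosome 19 the run of ZNF135, ZNF274 and ZNF8 had a median of -0.18 and 0 of 3 above. ZNF274, which recruits SETDB1 to the 3′ ends of zinc finger genes, read 3.34, 3.48 and 3.32 in control and 3.29, 3.00 and 3.32 with TQ, a difference of -0.18 ± 0.09 (SE; adjusted p 0.182 without the displaced arrays). These signals lay far below the median signal of the arrays, so little can be read from the lack of a call.

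5-FU against control asked what the antimetabolite did alone. All comparisons with control share the same 3 control arrays, so their values are given side by side and not as independent evidence. With all 12 arrays 2 members rose, ZNF219 and ZNF79, and 2 fell, ZNF202 and ZNF8. This is 2.08% of the members in each direction, where 4.32% of all genes rose and 2.97% fell. Arrays of 5-FU lay all above the controls in 5 members (14.2% of all genes) and all below in 13 (11.4% of all genes). The members' median was -0.10, against 0.09 over all genes. Leaving out the displaced arrays moved the median to 0.09, against -0.01 over all genes, and 21 members rose and 9 fell, where 14.9% and 13.4% of all genes did. The sign of the members' median thus rested on 1 array.

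ZNF219, a zinc finger partner of SOX9, read 7.45, 7.53 and 7.72 on the control arrays and 8.50, 8.61 and 9.10 on the 5-FU arrays. All 5-FU arrays were above all controls, and the difference was 1.17 ± 0.19 (SE; adjusted p 0.00477, limma). With TQ it read 7.62, 7.23 and 7.37, overlapping the controls. The displaced array was the highest of the 3, and without it the difference was 0.99 (adjusted p 0.000196).

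ZNF79, a KRAB zinc finger gene on chromosome 9, read 6.67, 6.49 and 6.82 in control and 8.16, 8.10 and 7.21 with 5-FU. Here the displaced array was the lowest of its group and still above every control. The difference was 1.16 ± 0.23 (SE; adjusted p 0.0145) with all arrays and 1.47 ± 0.10 (adjusted p 4.49e-06) without. A second probe set of ZNF79 rose by 1.58 (adjusted p 0.002) with all arrays, and another, an x_at probe set, did not pass at 0.26.

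ZNF202, a SCAN and KRAB repressor of genes of lipid metabolism, read 8.60, 8.44 and 8.56 in control and 7.76, 7.96 and 7.26 with 5-FU. All 5-FU arrays were lower, by -0.88 ± 0.17 (SE; adjusted p 0.0104) and, without the displaced array, by -0.68 (adjusted p 0.000299). Its second probe set fell by 0.84 (adjusted p 0.049). With TQ it read 8.34, 8.47 and 8.37, close to control, and the difference of -0.14 ± 0.17 (SE) did not pass.

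ZNF8 read 7.82, 7.76 and 7.81 in control and 7.09, 7.35 and 7.43 with 5-FU, a difference of -0.50 ± 0.12 (SE; adjusted p 0.0334). It was lower on all 3 arrays, with a control spread that was narrow. The call was lost on leaving out any 1 of 9 of the 12 arrays, among them each control array, with adjusted p from 0.057 to 0.135, and after quantile normalization (adjusted p 0.28). Leaving out the first control array also ended the calls of ZNF79 (adjusted p 0.063) and ZNF202 (0.057), and leaving out the second control array or the second 5-FU array ended that of ZNF79 (0.074 and 0.051). A fit of the 5-FU and control arrays only called 0 of the 4, as did the methods' t-test after adjustment, which called 1.41% of all genes.

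**Figure D4:**
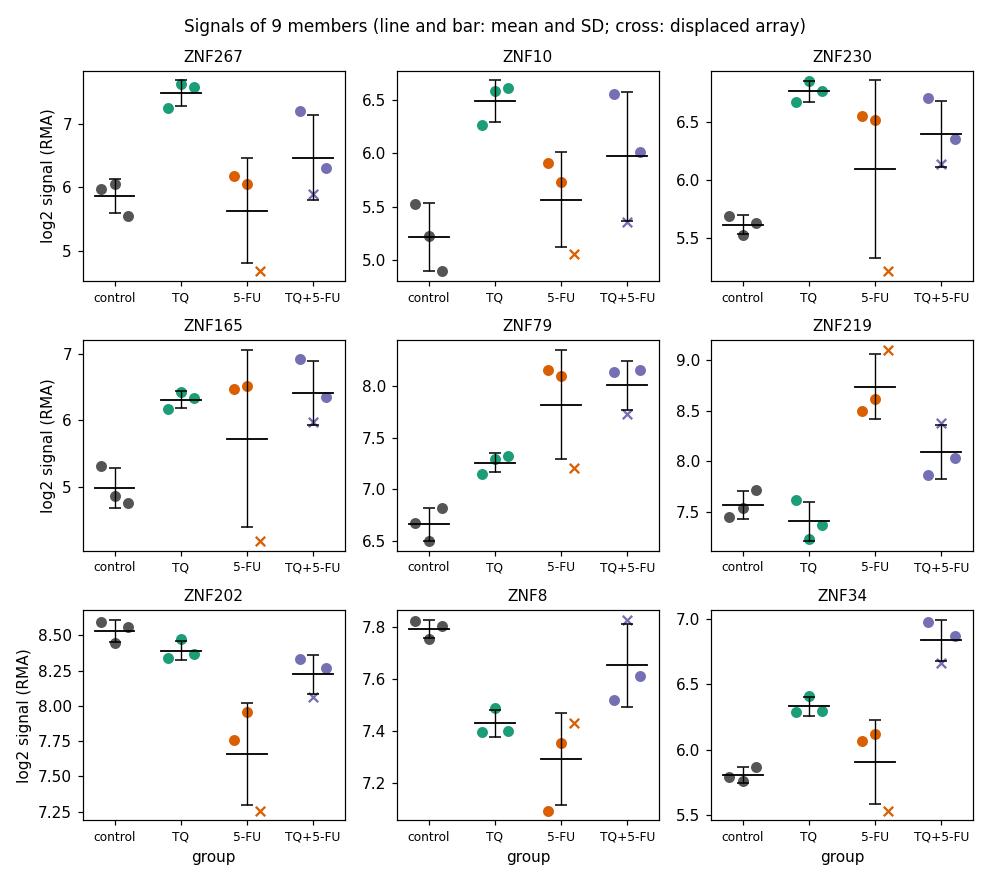
Log2 RMA signal (vertical axes, each with its own range) of 9 members on each array by group, with the group mean (line) and SD (bar) of its 3 arrays; crosses mark the displaced arrays. ZNF79 and ZNF219 are higher in every 5-FU array than in any control, ZNF202 and ZNF8 lower, and ZNF34 is highest with TQ+5-FU.

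Without the displaced arrays ZNF165 (1.52), ZNF230 (0.92) and ZNF200 (0.76) were next to ZNF79 and ZNF219 among the members that rose with 5-FU. ZNF165 read 6.47, 6.52 and 4.18, so that 2 arrays were above every control and the displaced array below every control. ZNF222 had the same form, at 7.24, 7.21 and 4.40. Its difference was 0.15 ± 0.64 (SE) with all arrays and 1.08 ± 0.19 without (adjusted p 0.911 and 0.00147). Among those that fell in that fit were ZNF22 (-0.62), ZNF174 (-0.43) and ZNF148 (-0.40, adjusted p 0.0241), the last of which had risen with TQ. ZNF217, not called with TQ, rose by 0.80 (adjusted p 0.0192).

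The displaced 5-FU array lay low for the members and not for most genes. Against the mean of the other 2 5-FU arrays, 68 of the 96 members were lower on it (70.8%), and 39 lower by more than 1 (40.6%), with a median gap of -0.74. Over all genes 32.5% were lower, 18.9% by more than 1, and the median gap was 0.44. Among ZNF300 and above the median gap was 0.18. The ZBTB, ZFP, ZKSCAN and ZSCAN genes lay low as well, with a median gap of -0.20, 60.9% lower and 28.3% lower by more than 1. The gaps of single members reached from -3.76 to 1.13. ZNF277, which read 9.70, 9.57 and 5.87, and ZNF281, which read 8.88, 8.65 and 5.01, had gaps of -3.76 and -3.76. ZNF140, ZNF222 and ZNF22 followed at -3.31, -2.82 and -2.98. In each of these 5-FU replicates 1 and 2 differed by less than 0.3 while replicate 3 lay over 2 lower. TQ+5-FU replicate 2 showed a smaller gap of the same sign, with a members' median of -0.41 against 0.18 over all genes, and again 68 members lower. The spike-in and marker values of the displaced 5-FU array given above moved with this gap, and their part in it was not tested.

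TQ+5-FU against control asked what the combination did. With all 12 arrays 2 members rose, ZNF34 and ZNF79, and 0 fell, where 1.78% of all genes rose and 0.853% fell. At an unadjusted p under 0.05 limma had 9 members higher and 1 lower, where 6.35% and 4.8% of all genes were. The methods' t-test called 2 after adjustment (2.08%), where it called 2.89% of all genes. All TQ+5-FU arrays lay above all controls in 17 members (13.6% of all genes) and below in 5 (11.1% of all genes). The median was 0.06, against 0.01 over all genes. Without the displaced arrays 25 members (26%) rose and 1, ZNF212, fell, where 12.7% of all genes rose and 10% fell. Of the ZBTB, ZFP, ZKSCAN and ZSCAN genes 23.9% rose, close to the members' share, and 6.52% fell. In this fit the members' median was 0.17, against -0.03 over all genes and 0.14 over these families.

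ZNF34, a KRAB zinc finger gene on chromosome 8, read 5.79, 5.76 and 5.87 in control and 6.97, 6.67 and 6.87 with TQ+5-FU. It read 6.29, 6.41 and 6.30 with TQ and 6.07, 6.12 and 5.54 with 5-FU. The arrays of the combination were above those of every other group. Its difference from control was 1.03 ± 0.16 (SE; adjusted p 0.00707), and 1.12 ± 0.08 (adjusted p 1.55e-05) without the displaced arrays. ZNF79 read 8.13, 7.73 and 8.16 with the combination, above all controls and all TQ arrays, a difference from control of 1.35 ± 0.23 (SE; adjusted p 0.0145).

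Leaving out either the first or the second control array, or TQ+5-FU replicate 1 or 3, ended the call of ZNF79, with adjusted p from 0.062 to 0.083. ZNF165 (1.44 ± 0.53, SE; adjusted p 0.274) and ZNF222 (1.13 ± 0.64; adjusted p 0.67) were as far from control but did not pass with all arrays. Their combination arrays read 6.93, 5.97 and 6.35 and 7.82, 6.62 and 7.35, in each case all above the controls. Both rose without the displaced arrays, with adjusted p of 0.000199 and 0.000491. At the low end ZNF292 read 6.24, 4.60 and 5.61 against 6.82, 6.39 and 6.28 in control, a difference of -1.01 ± 0.42 (SE; adjusted p 0.369) that did not pass. ZNF292 also lay below the controls on all 5-FU arrays, and there it fell without the displaced array by 0.64 (adjusted p 0.0265).

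**Figure D5:**
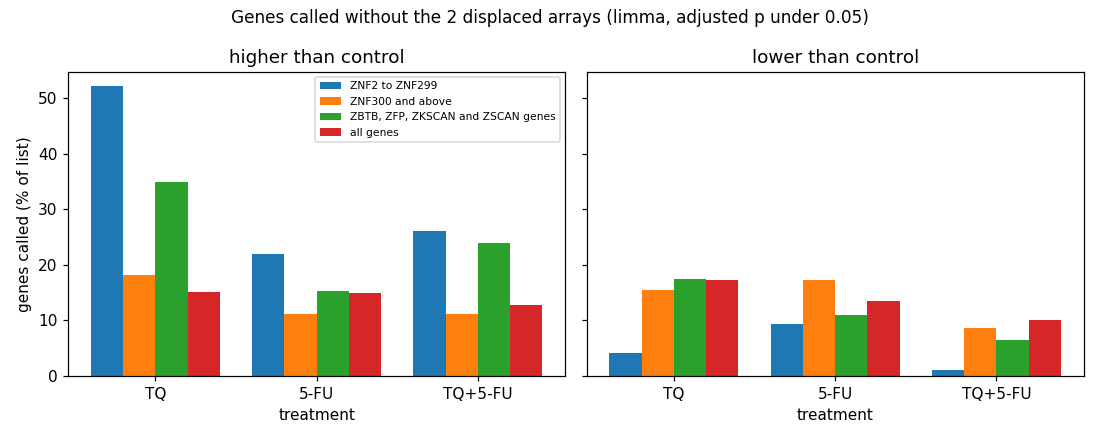
Share of each gene list called higher (left) or lower (right) than control by limma without the 2 displaced arrays, in percent of the list (vertical axis), for the 3 treatments (horizontal axis). Of the members 52.1% were higher with TQ, beside 15.1% of all genes, and 21.9% with 5-FU and 26% with TQ+5-FU, beside 14.9% and 12.7%. Of the ZBTB, ZFP, ZKSCAN and ZSCAN genes 34.8%, 15.2% and 23.9% were higher, in the same order.

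The combination was also set against each agent. Against 5-FU, 1 member passed with all arrays, where 0.802% of all genes did: ZNF34 was higher by 0.93 ± 0.16 (SE; adjusted p 0.0265). The call was lost on leaving out any 1 of 10 of the 12 arrays, with adjusted p from 0.0532 to 0.132, and with the replicate number as a block (0.0858). In the fit without the displaced arrays 6 were higher and 1 lower, where 3.67% of all genes were higher and 3.24% lower. The 6 were ZNF34, ZNF23, ZNF148, ZNF202, ZNF74 and ZNF16, and ZNF219 was lower. ZNF202 read 8.33, 8.07 and 8.27 with the combination and thus lay between 5-FU and control on every array. Its difference from 5-FU was 0.57 ± 0.17 (SE; adjusted p 0.209) with all arrays and 0.44 ± 0.10 (adjusted p 0.0263) without. ZNF219 read 7.86, 8.38 and 8.03, also between the groups, and differed from 5-FU by -0.65 ± 0.19 (adjusted p 0.211) and -0.61 ± 0.14 (adjusted p 0.0248).

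Against TQ, 0 members passed with all arrays, where 1.15% of all genes did. Limma had 5 higher and 19 lower at an unadjusted p under 0.05, where 9.38% of all genes were higher and 3.35% lower. The methods' t-test called 0 after adjustment, and 0.234% of all genes. The members' median difference was -0.25, against 0.10 over all genes. Without the displaced arrays 4 were higher (ZNF79, ZNF34, ZNF219 and ZNF76) and 15 lower, where 8.55% of all genes were higher and 4.2% lower. The largest falls were those of ZNF107 (-1.22 ± 0.28, SE; adjusted p 0.0209) and ZNF91 (-1.08 ± 0.23; adjusted p 0.0136). ZNF91 read 6.06, 3.67 and 5.24 with the combination, below every TQ array and reaching below the controls on the displaced one. ZNF148 (-0.66) and ZNF225 (-0.53) were lower as well, with adjusted p of 0.00581 and 0.0294.

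The interaction, which is TQ+5-FU minus TQ minus 5-FU plus control, measures how far the combination departed from the sum of both differences. With all arrays 0 members passed, where 0.167% of all genes did, and limma had 3 positive and 5 negative at an unadjusted p under 0.05, where 4.51% and 1.8% of all genes were. The smallest p was that of ZNF8 (0.72 ± 0.17, SE; adjusted p 0.21), which lay lower with either agent but read 7.52, 7.83 and 7.61 with both. ZNF253, ZNF202, ZNF41 and ZNF16 followed at -0.67, 0.71, -0.54 and 0.57. The signals of ZNF41 lay far below the median signal of the arrays. Without the displaced arrays 4 were positive and 14 negative, where 5.88% and 5.21% of all genes were. ZNF230 had -1.16 ± 0.16 (SE; adjusted p 0.00295), being higher by 1.15 with TQ, 0.92 with 5-FU and 0.92 with both. ZNF165 had -1.20 ± 0.26 (adjusted p 0.0206), from 1.34, 1.52 and 1.66. For both genes the combination was thus below the sum of the single differences. The members' median interaction was -0.25 in this fit, against 0.04 over all genes.

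The corepressor machinery through which KRAB proteins act was listed apart, and 21 of its 27 genes were on the array. With TQ 0 of the 21 passed in all 12 arrays (limma; 0 higher and 4 lower at an unadjusted p under 0.05, where 3.37% and 6.3% of all genes were). Without the displaced arrays 3 were higher and 11 lower, where 15.1% and 17.3% of all genes were. The median was -0.23 against -0.09 over all genes, a sign opposite to that of the zinc finger genes. TRIM28, the KRAB corepressor, had mean signals of 11.52 in control, 11.34 with TQ, 11.59 with 5-FU and 11.35 with TQ+5-FU and did not pass in any comparison with control over all arrays. It fell by 0.28 with TQ+5-FU without the displaced arrays (adjusted p 0.0485). With 5-FU 0 rose and 4 fell (19%), where 4.32% of all genes rose and 2.97% fell. These were SETDB1, which fell by 0.83 (adjusted p 0.03), MORC2, a silencing ATPase, by 0.88 (0.006), ATRX, a chromatin remodeller, by 1.35 (0.039) and the DNA methyltransferase DNMT1 by 0.44 (0.034). With TQ+5-FU 0 rose and 2 fell (9.52%), where 1.78% and 0.853% of all genes did. The remodeller CHD3 fell by 0.57 (adjusted p 0.039) and DNMT1 by 0.59 (0.018). Leaving out the displaced arrays, 1 rose and 10 fell with 5-FU (4.76% and 47.6%, against 14.9% and 13.4% of all genes), and 0 rose and 10 fell with TQ+5-FU (against 12.7% and 10% of all genes).

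For 23 members 29 further probe sets were on the array. With TQ 20 of these 29 had the same sign as the probe set used, with 5-FU 25 and with TQ+5-FU 20. Of 15 further probe sets of genes called with TQ without the displaced arrays, 7 were called in the same direction and 4 had the opposite sign. With 5-FU these were 6 and 1 of 13, and with TQ+5-FU 4 and 1 of 7. The opposite one with 5-FU belonged to ZNF277, whose probe set in use rose by 0.46 (adjusted p 0.02) while the other fell by 0.74 (adjusted p 0.000923). Both further probe sets of ZNF24 rose with TQ (0.90 and 0.82, beside 0.95), as did that of ZNF148 (0.94), while that of ZNF143 stood at -0.06 and did not pass.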

How the data were processed

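Total RNA of RKO cells was read on 12 arrays, 3 per group. The authors deposited log2 values after RMA (background correction, quantile normalization and summary of the probes of a set), with GeneSpring GX named in the methods and Affymetrix Expression Console in the processing notes of the submitters. The values do not show which was used, and no further scaling was done. RMA sets the arrays to 1 distribution, so a change shared by most genes would not be seen. Arrays give no read depth, and 3 arrays per group limit the precision.

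Probe sets were named from the annotation of the platform: 22277 in the table, of which 62 control probe sets were left out, and 19064 of the other 22215 name 1 gene. All tests were run in R 4.3.3 with limma 3.58.1 (lmFit and eBayes, 2-sided, all 12 arrays, 1 mean per group), adjusted by Benjamini-Hochberg over 22215 probe sets with a threshold of 0.05. Errors are standard errors of the fit. Lists are given by counts and medians beside those of all genes, with no test of the list. The members, the lists and the 2 displaced arrays were chosen with earlier results of these data known. The limma step was tested on simulated data with known changes and independent noise. Those data held no displaced arrays, so that test does not bear on calls that depend on them.

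The genes named are ZNF165 and ZNF222, every member past the threshold in a comparison with control, the 5 largest differences in each direction, the 5 smallest p-values in each direction without the displaced arrays, the 5 smallest p-values in the other comparisons and the 5 largest gaps of the displaced 5-FU array. This gave 39 members, and others named for their place in a run or their role were chosen after their values were seen. Alternatives were the analysis of variance with Tukey's HSD and the t-test of the methods, other sets of arrays, a replicate block, quantile normalization, median centring, no dim probe sets, the mean over probe sets, array weights and another variance prior. Promoters are RefSeq windows of 300 bases on GRCh38.p14, searched on both strands. Python 3.11.15 with matplotlib 3.10.9 drew the figures.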

Additional observations from a re-analysis of the deposited data

How the results depend on the processing

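With 3 arrays per group, calls of single members depend on the spread that the fit assumes. The methods' ANOVA with Tukey's HSD called 1 member with TQ, 4 in TQ+5-FU against 5-FU and 2 in TQ+5-FU against TQ, and 3.06%, 3.88% and 4.66% of all genes. The methods' t-test, adjusted, called 37 with TQ, 0 with 5-FU and 0 in TQ+5-FU against 5-FU (17.5%, 1.41% and 0% of all genes). With the arrays of the compared groups only, limma called 54 with TQ, 0 with 5-FU, 4 with TQ+5-FU and 0 in TQ+5-FU against 5-FU (30.9%, 0.861%, 4.15% and 0%). With array weights, which count displaced arrays less, it called 65 with TQ, 42 with 5-FU, 48 with TQ+5-FU, 15 in TQ+5-FU against 5-FU, 65 in TQ+5-FU against TQ and 59 in the interaction, where it called 50.7%, 38.5%, 44.5%, 21.8%, 46.6% and 38.3% of all genes in this order. With both displaced arrays left out the counts were 54, 30, 26, 7, 19 and 18 in the same order, and the shares of all genes 32.4%, 28.3%, 22.7%, 6.91%, 12.7% and 11.1%. The members' TQ median was 0.51 without the dimmest 30% of probe sets, a step that drops 20 members. With 5-FU, 11 members changed sign and were called under array weights and 8 without the displaced arrays; the cause was not tested. Of those named by the rule, ZNF140 (0.76) and ZNF189 (0.48) turned from lower to higher under array weights, and ZNF140 (0.80), ZNF189 (0.47) and ZNF277 (0.46) without the displaced arrays. ZNF44 (0.38), ZNF45 (0.54), ZNF195 (0.53) and ZNF207 (0.33) also turned to higher without them, and ZNF74 (-0.24) to lower.

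Leaving out 1 array at a time gave 0 to 20 members called with TQ, 1 to 10 with 5-FU, 1 to 8 with TQ+5-FU, 0 to 2 in TQ+5-FU against 5-FU, 0 to 18 in TQ+5-FU against TQ and 0 to 2 in the interaction, each highest without 5-FU replicate 3. The members' median ranged from 0.32 to 0.47 with TQ, from -0.22 to 0.09 with 5-FU (positive without 5-FU replicate 3) and from -0.02 to 0.17 with TQ+5-FU. Over 18 pairs of arrays with the same replicate number the correlation of deviations from the group means ran from -0.84 to 0.86 (median -0.20), with 6 over 0.1. Over 36 pairs of different number it ran from -0.88 to 0.88 (median 0.18), with 19 over 0.1. Of the 12 arrays, 4 correlated best with their own number. The 2 displaced arrays bear different numbers and enter these deviations, so this check cannot decide whether the numbers pair the arrays. With the replicate block limma called 0 members in TQ+5-FU against 5-FU (ZNF34, adjusted p 0.0858).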
